A study of Mus musculus with 8 samples.

Results

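The genes described here encode the transcriptional coactivators YAP (Yap1) and TAZ (Wwtr1), their DNA-binding partner TEAD1, regulators that restrain or release them, and direct target genes including the CCN matrix proteins CYR61 (CCN1) and CTGF (CCN2). They were taken from the deposited gene table by exact name. Of 10 listed symbols, 9 had a row among the 15452 named genes of the table, and Ankrd1, a stress-induced target gene, was not analysed here. All 9 passed the filter on low counts. RNA came from bEnd.3, a line of immortalised endothelial cells from mouse brain. The control is called vehicle in the titles, untreated or non-treated elsewhere in the labels and PBS with BSA in the design text, and the titles set the groups. Cells received recombinant Norrin at 200 ng/ml for 24 h (4 libraries) or vehicle (4 libraries).

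YAP and TAZ have no DNA-binding domain of their own and act through TEAD factors. The LATS kinases of the Hippo pathway phosphorylate them, which holds them in the cytoplasm. Angiomotin proteins bind them at junctions, and the LIM protein AJUBA binds LATS and lowers its activity. In endothelium YAP and TAZ take part in sprouting and in the response to stiffness and flow. Norrin is a ligand of Frizzled-4 that stabilises beta-catenin, and YAP and TAZ are also known as parts of the beta-catenin destruction complex.

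TEAD factors recognise the letters GGAATG. RefSeq promoter windows on GRCm38.p6, which reach 250 bases before and 50 after a gene's start, were held for 8 of the 10 listed genes in 10 windows. These letters stood on either strand in 8 of the 10 windows, and in 14.7% of all 32851 windows of the same 300 bases. The 2 Wwtr1 windows overlap and hold the same site. The genes were listed as parts or targets of TEAD regulation, so this share describes the list and no test was made. The windows of the 2 genes that passed the expression test are shown in full, 5′ to 3′ on the gene's strand, with the motif in capitals (CATTCC is GGAATG read on the other strand). The Cyr61 window is chr3:145649936-145650235, minus strand, with the motif starting 103 bases before the gene's start. The Wwtr1 window is chr3:57575861-57576160, minus strand, with the motif starting 136 bases before it.
Cyr61: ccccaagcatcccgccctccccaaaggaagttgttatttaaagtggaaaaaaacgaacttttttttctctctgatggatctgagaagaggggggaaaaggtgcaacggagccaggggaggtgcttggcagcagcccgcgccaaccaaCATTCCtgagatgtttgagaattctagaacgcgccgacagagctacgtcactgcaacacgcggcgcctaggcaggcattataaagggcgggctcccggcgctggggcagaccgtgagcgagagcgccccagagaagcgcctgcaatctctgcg
Wwtr1: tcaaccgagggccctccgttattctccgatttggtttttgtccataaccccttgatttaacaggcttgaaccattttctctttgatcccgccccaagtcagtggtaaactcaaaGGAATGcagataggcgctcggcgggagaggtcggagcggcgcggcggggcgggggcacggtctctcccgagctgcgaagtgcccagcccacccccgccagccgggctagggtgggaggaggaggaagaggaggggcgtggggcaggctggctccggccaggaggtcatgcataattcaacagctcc
For the other genes only the motif with 10 bases on either side is shown, on the strand that reads GGAATG. Ajuba and Ankrd1 each held a pair of sites, while 1.36% of all windows held 2 or more.
Yap1: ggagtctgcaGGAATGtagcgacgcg
Amotl2: tgctatgccaGGAATGtgagagtttc
Lats2: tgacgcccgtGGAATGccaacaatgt
Ajuba, first site: ggggcactgtGGAATGtatccatcaa
Ajuba, second site: gtttacagttGGAATGcgcggagggg
Ankrd1, first site: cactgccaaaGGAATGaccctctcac
Ankrd1, second site: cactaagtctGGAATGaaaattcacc
The Amotl1 window held no such letters, nor did the second Lats2 window.

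Total counts ran from 13445380 to 14905863 in the Norrin libraries and from 12463942 to 15220576 in the vehicle libraries. Axin2, a classical beta-catenin target that shows whether the pathway responded, was at 5.89, 5.76, 7.83 and 7.38 CPM in the Norrin libraries, against 0.639, 0.142, 0.258 and 0.402 CPM in the vehicle libraries, of which replicate 2 lay below the level of 3 counts (0.212 CPM). CPM is a gene's count per 1000000 counts of its library, with TMM (trimmed mean of M-values) scaling. All 10 listed endothelial markers had a row, with summed levels of 7404 to 7641 CPM under Norrin and 7675 to 7920 CPM under vehicle, which did not overlap. Of these markers 8 of 10 lay below 0 on the log2 scale, as did 6649 of all 13666 tested genes. Egfl7, a secreted endothelial protein gene, fell by 0.16 (edgeR adjusted p = 0.0378), and the adhesion molecule gene Esam rose by 0.31 (1.79e-05). The other 8 did not pass an adjusted p of 0.05, where 2.17% of all tested genes did. Among those 8, Pecam1 (mean 1438 CPM under Norrin, 1537 CPM under vehicle) and Kdr (954 and 1027 CPM) had groups that did not overlap. Egfl7 and Esam did not overlap either, and 7.01% of all tested genes did not. Of 33 listed markers of mural cells, fibroblasts, astrocytes, microglia and neurons, 12 had a row and none of these was at 0 in every library. Their summed levels overlapped between groups for all 5 types, and the highest, for neurons, was 32.4 to 49.3 CPM under Norrin and 36.7 to 40.2 CPM under vehicle. That sum was nearly all Nefl, at 31.4 to 48.6 CPM over the libraries. Tubb3, the only other neuron marker with a row, was at 0.386 to 3.04 CPM. The part of these marker levels in the results was not tested.

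The authors' deposited table gives RPKM, a level per gene length, as 1 value per group. Wwtr1 stood highest, at 130 RPKM under Norrin and 152 RPKM under vehicle, and its paralogue Yap1 was at 67.2 and 72.3 RPKM. Amotl1 followed Wwtr1 at 100.5 RPKM under Norrin and 105 RPKM under vehicle. To give a spread between libraries, CPM was scaled, per gene and group, to the deposited RPKM, so the SDs are those of CPM. Under vehicle, Cyr61 (76.3 RPKM), Amotl2 (73.3 RPKM), Yap1 (72.3 RPKM) and the CCN gene Nov (66.1 RPKM) stood next to each other. These neighbours differed by no more than their summed SDs. The same held for Lats2 (36.1 RPKM), Tead2 (33.8 RPKM) and Tead1 (30.8 RPKM), and for Tead4 (22.7 RPKM) and Ctgf (22.1 RPKM). It held too for Ajuba (9.04 RPKM) and the CCN gene Wisp1 (6.47 RPKM). Ajuba was the lowest of the 9, at 8.91 RPKM under Norrin and 9.04 RPKM under vehicle, near the middle of the table (46.5th percentile).

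**Figure D1:**
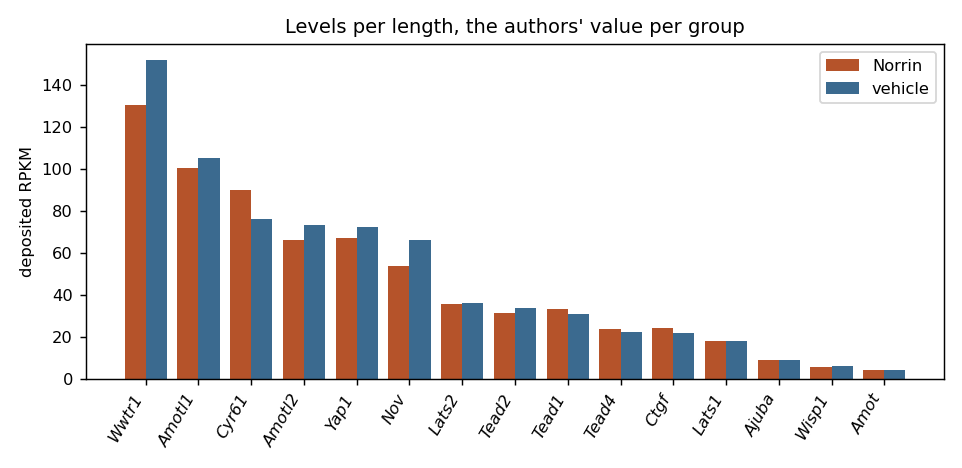
Deposited RPKM of the listed genes and their paralogues, Norrin bars left of vehicle bars, ordered by the vehicle value. Wwtr1 is highest (130 RPKM under Norrin, 152 RPKM under vehicle) and Amot lowest (4.29 and 4.13 RPKM); there is 1 value per group and so no error bar.

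The comparison asks which genes Norrin changes in these cells. Cyr61 rose and Wwtr1 fell, while Yap1, Tead1, Lats2, Ctgf, Amotl1, Amotl2 and Ajuba did not pass. Cyr61 under Norrin was 1.18 times and Wwtr1 0.861 times the vehicle level. That is 2 of 9 genes, where 2.17% of all 13666 tested genes were called (edgeR quasi-likelihood test, Benjamini-Hochberg adjusted p under 0.05, 1.2% higher and 0.966% lower). The 9 genes had 4 estimates above 0 and 5 below, with a median log2 fold change of -0.01, against 0.00 over all tested genes. In bulk RNA, fewer cells of a kind and less RNA per cell cannot be told apart.

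Among the coactivators, Wwtr1, which encodes TAZ, was at 169, 176, 174 and 193 CPM in the Norrin libraries, against 217, 201, 211 and 197 CPM in the vehicle libraries. Every Norrin library lay below every vehicle library, and Norrin replicate 4 was the nearest to them. It fell by 0.22 ± 0.05 (SE) on the log2 scale, with a 95% interval of -0.33 to -0.11 and an edgeR adjusted p of 0.0239. An exact two-sided permutation test gave 0.0286, the smallest p it can give. That p is not adjusted and is the same for every gene whose groups do not overlap, so it adds nothing to the separation. With 1 library left out at a time the estimate stayed between -0.26 and -0.19, and the call was kept in 3 of 8 cases: without Norrin replicate 4 (adjusted p = 0.00263) or vehicle replicate 2 (0.0441) or 4 (0.0309). Without Norrin replicate 1, 2 or 3 or vehicle replicate 1 or 3 the adjusted p was 0.0771 to 0.104.

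Yap1 was at 94.2, 93.8, 93.5 and 111 CPM in the Norrin libraries, against 104, 111, 98.3 and 107 CPM in the vehicle libraries. Norrin replicates 1, 2 and 3 lay below all vehicle libraries, and Norrin replicate 4 lay above them all by a margin of under 1 CPM. The log2 fold change was -0.10 ± 0.06 with an interval of -0.23 to 0.03 (edgeR adjusted p = 0.645), so a fall of the size of that of Wwtr1 lies inside the interval. Without Norrin replicate 4 it was -0.16, with an adjusted p of 0.197. In counts, Wwtr1 exceeded Yap1 by 1.74 to 1.88 times in the Norrin libraries and by 1.81 to 2.15 times in the vehicle libraries, and these ranges overlap.

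Tead1, the DNA-binding partner, was at 37.1, 37.6, 39.5 and 36.8 CPM under Norrin, against 34.6, 30.9, 30.9 and 42.9 CPM under vehicle. Its vehicle libraries spread by 16.3% (coefficient of variation), against 3.18% under Norrin, and vehicle replicate 4 was the highest of all 8. Counting error alone gives an expected 4.61% under vehicle and 4.36% under Norrin. This is not a lower limit for a spread taken from 4 libraries, and the Norrin spread lay below it. The difference in spread was not tested. The log2 fold change was 0.12 ± 0.10 with an interval of -0.08 to 0.32 (edgeR adjusted p = 0.754). Without vehicle replicate 4 it was 0.23, and without vehicle replicate 2 or 3 it was 0.07 or 0.06, none past the threshold (adjusted p = 0.333 to 0.918). The paralogues Tead2 (-0.08, interval -0.25 to 0.09) and Tead4 (0.07, -0.13 to 0.28) did not pass, and Tead3 was not analysed here.

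**Figure D2:**
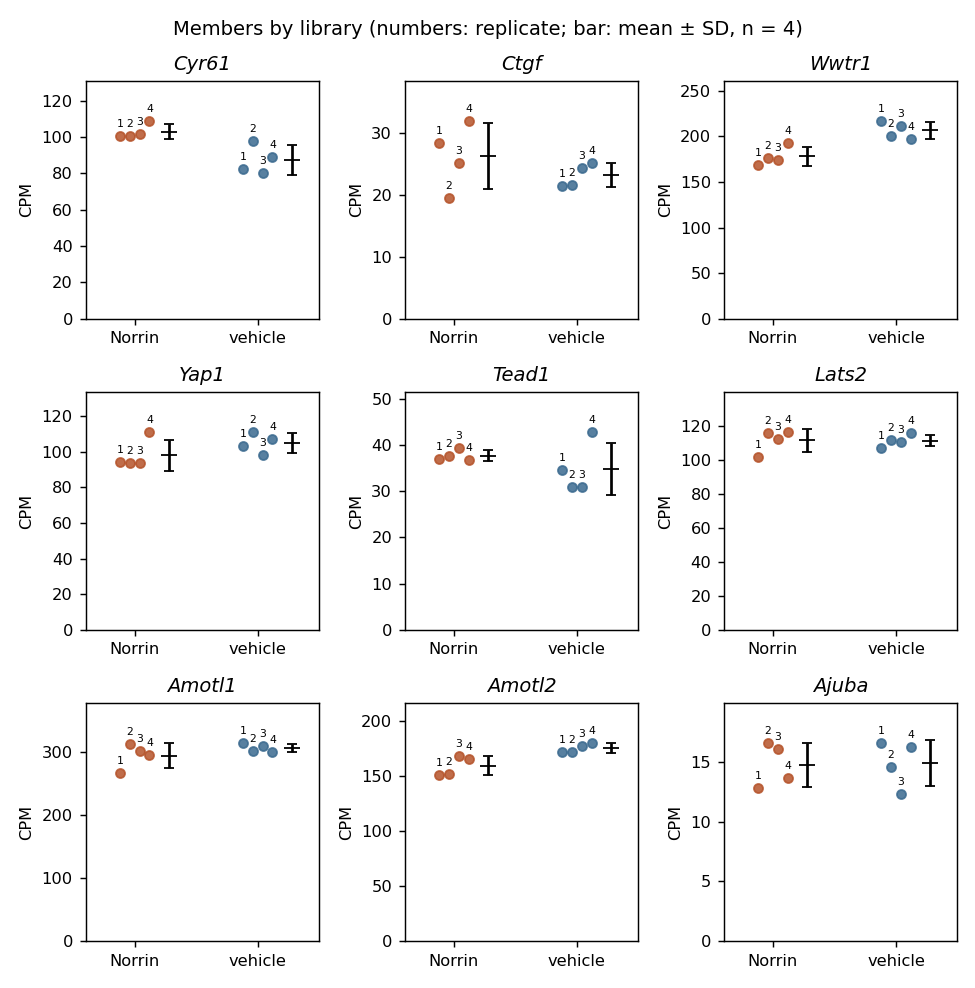
CPM of the 9 genes in each library, Norrin left of vehicle, with the replicate number above each point and the mean ± SD (n = 4) as a bar. The groups do not overlap for Cyr61, Wwtr1 and Amotl2, and Norrin replicate 4 stands above the other Norrin libraries for Yap1 and Cyr61.

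Of the target genes, Cyr61, which encodes a secreted matrix protein that binds integrins, was at 101, 100.5, 102 and 109 CPM in the Norrin libraries. In the vehicle libraries it was at 82.2, 97.9, 79.9 and 89.0 CPM. Every Norrin library lay above every vehicle library, with vehicle replicate 2 under 3 CPM below the lowest of them. Cyr61 rose by 0.24 ± 0.06 on the log2 scale, or 1.18-fold, with an interval of 0.11 to 0.37 (edgeR adjusted p = 0.0455, exact permutation p = 0.0286). Its call was kept in 1 of 8 fits with a library left out, without vehicle replicate 2 (log2 0.30, adjusted p = 0.0112). With any other library left out the estimate was between 0.20 and 0.25 and the adjusted p between 0.0676 and 0.196. The call was also lost with limma-voom (adjusted p = 0.0836) and with no filter on low counts (0.0531).

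Ctgf, the other classical CCN target, was at 28.4, 19.5, 25.1 and 32.0 CPM under Norrin, against 21.5, 21.7, 24.4 and 25.2 CPM under vehicle. The groups overlapped, and the Norrin libraries held both the lowest and the highest value. Their coefficient of variation was 20.3%, where counting error alone gives 5.23%. The log2 fold change was 0.18 ± 0.12, with an interval of -0.08 to 0.43 that includes both no change and the estimate for Cyr61 (edgeR adjusted p = 0.678). Without Norrin replicate 4 it was 0.07, and without Norrin replicate 2 it was 0.30 (adjusted p = 0.893 and 0.317).

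Among other CCN genes in the table, Nov, which encodes CCN3, a secreted paralogue of CYR61 and CTGF, fell. It was at 57.8, 64.6, 56.7 and 51.1 CPM under Norrin, against 69.7, 80.3, 62.2 and 70.6 CPM under vehicle. Only Norrin replicate 2 overlapped the vehicle range. The fall was 0.30 ± 0.08 on the log2 scale (edgeR adjusted p = 0.049), kept in 2 of 8 fits with a library left out, without Norrin replicate 2 or vehicle replicate 3, and otherwise lost at adjusted p = 0.0933 to 0.255. In limma-voom the adjusted p was 0.111. Within libraries, Cyr61 exceeded Nov in counts by 1.56 to 2.13 times under Norrin, against 1.18 to 1.29 times under vehicle, and these ranges did not overlap. Cyr61 rose and Nov fell in these same libraries, so their ratio adds no separate evidence. The ratio of Cyr61 to Ctgf overlapped, at 3.40 to 5.16 under Norrin and 3.28 to 4.52 under vehicle. Wisp1 (CCN4), known as a Wnt-induced gene, was at 5.71 to 6.94 CPM under Norrin and 5.24 to 9.80 CPM under vehicle (log2 -0.22, interval -0.64 to 0.19, edgeR adjusted p = 0.786). Wisp2 (CCN5) was not analysed here.

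**Figure D3:**
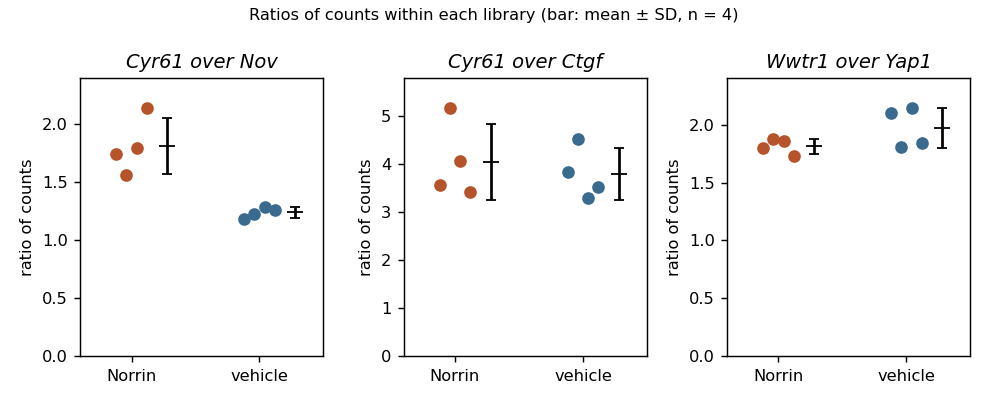
Ratios of counts within each library for Cyr61 over Nov, Cyr61 over Ctgf and Wwtr1 over Yap1, Norrin left of vehicle, with mean ± SD (n = 4). The Cyr61 over Nov ratio is 1.56 to 2.13 in the Norrin libraries and 1.18 to 1.29 in the vehicle libraries, while the other 2 ratios overlap between groups. Cyr61 was called higher and Nov lower in these same libraries, so the Cyr61 over Nov ratio adds no separate evidence.

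Among the regulators, Lats2, a kinase that phosphorylates YAP and TAZ and is itself a YAP target, was at 101, 116, 112 and 117 CPM under Norrin. Under vehicle it was at 107, 112, 111 and 116 CPM. The estimate lay at 0.00 ± 0.06 with an interval of -0.12 to 0.12 (edgeR adjusted p = 0.999), which leaves out changes of the size estimated for Wwtr1 or Cyr61. Its paralogue Lats1 was at 0.03 (interval -0.14 to 0.19).

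Amotl2, an angiomotin family member that binds YAP and is also a YAP target, was at 151, 152, 168 and 166 CPM under Norrin, against 172, 171, 177 and 180 CPM under vehicle. Every Norrin library lay below every vehicle library, which by itself sets the unadjusted exact permutation p at 0.0286, the smallest possible. The log2 fold change was -0.14 ± 0.05 (interval -0.25 to -0.03), and the edgeR adjusted p over all genes was 0.254. With Cyr61 and Wwtr1 this made 3 of 9 genes whose groups did not overlap, against 7.01% of all tested genes.

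Amotl1, the most abundant angiomotin gene here, was at 266, 312, 302 and 295 CPM under Norrin, against 314, 301, 309 and 300 CPM under vehicle (log2 -0.06, interval -0.16 to 0.04, edgeR adjusted p = 0.752). Amot, at 4.29 RPKM under Norrin and 4.13 RPKM under vehicle in the authors' deposited table, was at a log2 fold change of -0.07 in counts (interval -0.37 to 0.22), so these values differ in sign and neither direction is called. Ajuba was at 12.8, 16.6, 16.1 and 13.7 CPM under Norrin, against 16.6, 14.6, 12.4 and 16.2 CPM under vehicle. Both groups covered the same range, and its interval of -0.30 to 0.27 is wide (edgeR adjusted p = 0.988).

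**Figure D4:**
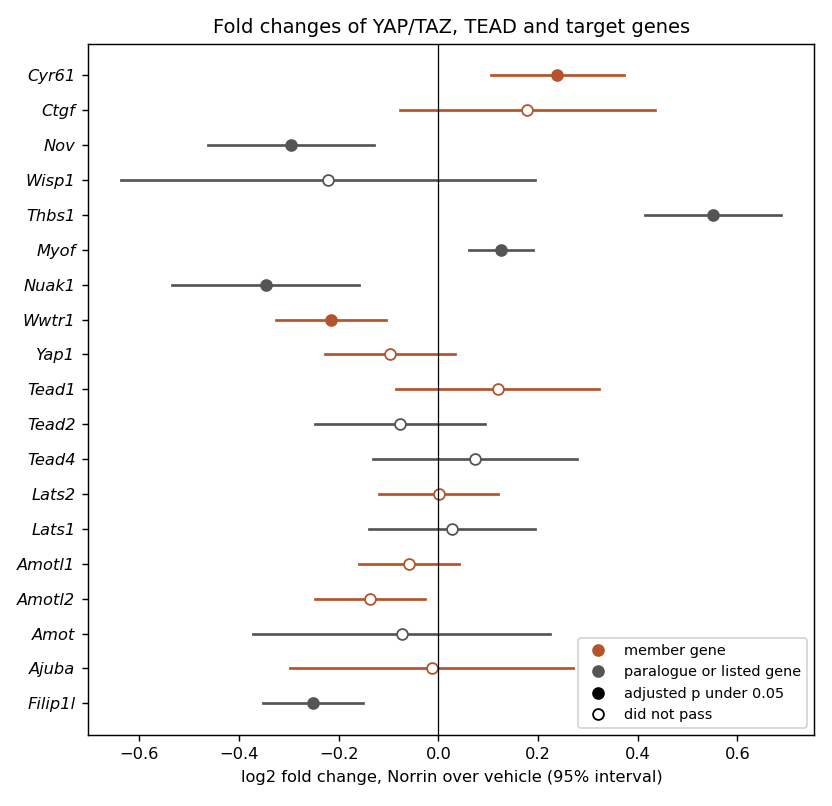
Log2 fold changes of Norrin over vehicle with 95% intervals for the listed genes, their paralogues and the called genes of the wider lists. Filled points passed the adjusted p of 0.05, among them Cyr61 at 0.24, Wwtr1 at -0.22 and Thbs1 at 0.55.

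A wider list of 33 Hippo pathway genes had 30 tested members. Wwtr1 fell and the other 29 did not pass, where 2.17% of all tested genes were called. Of the 30, 12 lay above 0, and the median was -0.03 against 0.00 over all tested genes. Wwc2, a relative of the LATS activator KIBRA, was at 142 to 147 CPM under Norrin and 154 to 172 CPM under vehicle (log2 -0.19 ± 0.05, edgeR adjusted p = 0.0572). Stk4, a kinase that activates LATS, was at 0.22 ± 0.08 (0.194). The groups did not overlap for either gene, nor for Wwtr1 and Amotl2, and overlapped for the rest of this list. Over all tested genes, 7.01% had groups that did not overlap.

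Of 34 genes listed as YAP/TAZ and TEAD targets, 26 were tested: 3 rose (Thbs1, Cyr61 and Myof), 2 fell (Nov and Nuak1) and 21 did not pass, beside 1.2% higher and 0.966% lower over all tested genes. With a library left out, 1 to 3 of the 26 passed. The list had 13 estimates above 0 and 13 below, with a median of -0.01. Thbs1, encoding the matrix glycoprotein thrombospondin 1, was at 138, 150, 135 and 139 CPM under Norrin, against 87.0, 92.9, 91.7 and 112 CPM under vehicle. It rose by 0.55 ± 0.07 on the log2 scale (1.47-fold, edgeR adjusted p = 2.71e-06), passed in all 8 fits with a library left out, and was the only gene of this list to pass at an adjusted p under 0.01.

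Myof, encoding the membrane repair protein myoferlin, was at 1814, 1760, 1747 and 1706 CPM under Norrin, against 1609, 1647, 1594 and 1592 CPM under vehicle (log2 0.13 ± 0.03, edgeR adjusted p = 0.0248). It kept its call with a library left out only without Norrin replicate 4 (0.00738, and up to 0.102 otherwise). Nuak1, encoding a kinase related to AMPK, was at 65.6, 87.3, 69.8 and 63.8 CPM under Norrin, against 102, 87.7, 91.9 and 82.4 CPM under vehicle. It fell by 0.35 ± 0.09 (edgeR adjusted p = 0.049) and kept its call only without Norrin replicate 2 (0.000635) or vehicle replicate 4. In the other 6 such fits the adjusted p reached 0.197.

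**Figure D5:**
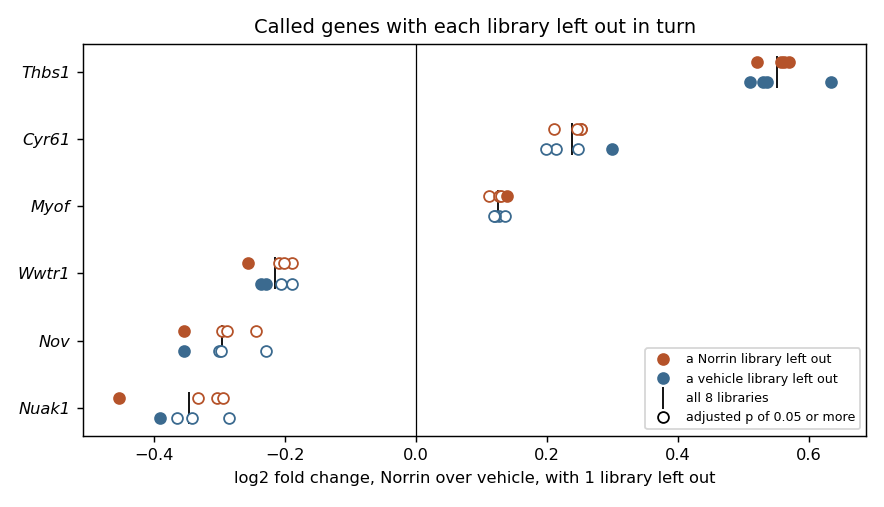
Log2 fold changes of the called YAP/TAZ pathway and target genes with each library left out in turn, Norrin libraries above vehicle libraries, and with all 8 libraries as a line. Every fit keeps its direction, while Thbs1 is filled (adjusted p under 0.05) in all 8 and Cyr61 in 1 of 8.

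In a list of 17 genes of the actin cytoskeleton and of serum response factor, which also acts on Ctgf and Cyr61, 14 were tested. Filip1l, encoding a filamin-interacting protein, fell and 13 did not pass, where 2.17% of all tested genes were called, and the median was 0.00. Filip1l was at 234, 229, 250 and 228 CPM under Norrin, against 294, 287, 265 and 274 CPM under vehicle (log2 -0.25 ± 0.05, edgeR adjusted p = 0.00221), and it passed in all 8 fits with a library left out. Tpm4, a tropomyosin gene, was at 0.16 ± 0.05 (0.0777). Srf itself was at -0.08 (interval -0.26 to 0.09).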

How the data were processed

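RNA-seq was made from ribosome-depleted total RNA with a random-primed kit, per the labels' protocols. The aligner STAR appears with no version, per the submitters' processing notes. The authors deposited estimated counts per gene and library (not normalised), RPKM as 1 value per group, and a ratio of the Norrin to the vehicle RPKM. For build, annotation, counting tool and strand, the sources used here give nothing, which leaves overlapping and antisense genes uncertain. Counts were rounded, which changed 763 of 123616 (635 of them by over 0.01), and 1 row without a name was left out.

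The test was edgeR 4.0.16 under R 4.3.3 (filterByExpr, TMM, robust quasi-likelihood fit, two-sided), with Benjamini-Hochberg adjustment over 13666 genes. The filter left out 1786 genes. Intervals cover 95%. Replicates varied by 11.2% (common dispersion 0.0124). A count of 3 equals 0.193 to 0.241 CPM, a limit that reflects counting error alone. Simulated data were used to check the edgeR step. Alternatives were DESeq2 1.42.0 (test and size factors), limma-voom (limma 3.58.1), other filters, a replicate block, left-out libraries and a threshold of 0.01.

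The genes and lists were chosen with earlier results of these data known. Text names all listed genes and their paralogues, Axin2, and called genes of the Hippo, target and actin lists, up to 6 per direction. Wwc2, Stk4, Tpm4, Srf, Igfbp3, Esam, Egfl7, Pecam1 and Kdr were added after their values were seen. Lists matched by symbol, then by the table's older names. The labels call the libraries biological replicates and say no more, so p-values reflect only how far these cultures differ. All pairs within a group differed by more than sampling noise (lowest chi-square per degree of freedom 5.5).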

Additional observations from a re-analysis of the deposited data

Results flagged for a closer look

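In 40 groups of 4 libraries (20 genes in 2 groups), 2 held a library far from the other 3, and chance gives about 1 in 20. Both were Norrin replicate 4. Yap1 stood at 111.3 CPM there, against 93.5 to 94.2 CPM in the other Norrin libraries. Cyr61 stood at 109 CPM, against 100.5 to 102 CPM. Without this library the log2 fold change was -0.16 for Yap1 (edgeR adjusted p = 0.197) and 0.21 for Cyr61 (0.0915).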

How the results depend on the processing

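Over all genes, 296 were called, 171 at a threshold of 0.01, and 206 to 452 with a library left out, the highest without Norrin replicate 4. Of the 9 listed genes 2 were called, 1 with no filter or with limma-voom, 0 at 0.01 by edgeR (3 had an unadjusted p below 0.05), and 0 to 2 with a library left out: 2 without vehicle replicate 2, 1 without Norrin replicate 4 or vehicle replicate 4, and 0 without any other. The Hippo list had 1 call, 2 with DESeq2 or the replicate block (Wwc2 and Wwtr1), 0 at 0.01 by edgeR (7 had an unadjusted p below 0.05) and 0 to 2 with a library left out. Over all 13666 tested genes, 1548 had an unadjusted edgeR p below 0.05. The target list had 5 calls, 2 with limma-voom, 1 at 0.01 and 1 to 3 with a library left out, each such fit with fewer samples. It had 6 with the replicate block (Igfbp3 added) and 4 with no filter (Cyr61 lost) or with at least 1 CPM in 4 libraries. Nuak1 lost its call with that 1 CPM filter (adjusted p = 0.0511) and with limma-voom (0.055). The actin list had 1 call, 2 with the replicate block (Tpm4 added) and 1 to 2 with a library left out. Whether same-numbered libraries pair is not known from the labels. Their deviations correlated only at -0.019 to 0.074. Norrin replicates 2 and 4 correlated best with the vehicle library of the same number, and replicates 1 and 3 did not. The replicate block called 402 genes over the table, with Cyr61 and Wwtr1 still called.

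The sign was not fixed for 4 genes near 0, none called in any fit. Lats2 was at 0.00053, and at -0.00033 with DESeq2 size factors, -0.00041 with no filter, -0.00052 with the replicate block, -0.00046 with DESeq2 and -0.0024 with limma-voom. With a library left out, Lats2 ran from -0.021 to 0.046, Ajuba from -0.097 to 0.052, Lats1 from -0.049 to 0.083 and Amot from -0.132 to 0.0093. The cause was not tested. Each of Cyr61, Wwtr1, Nov, Thbs1, Myof, Nuak1 and Filip1l kept its direction in all alternatives. Scalings moved the median of all genes by under 0.1.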

Other observations

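Likeness to Cyr61 was measured as Pearson's r of log2 CPM over the 8 libraries, among 8576 other genes at 10 CPM or more. The profiles most like it were those of Lrrk2 (r = 0.968), Ctr9 (0.955) and BC029722 (0.944). For Ctgf they were Tmem33 (0.978), E2f6 (0.958) and Pibf1 (0.956), so the 3 most like genes differed between these CCN genes. These are the highest of many values over few libraries and are given as a description.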
